A study of Mus musculus with 6 samples.

Results

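Messenger RNA levels of 10 genes were followed in mouse embryonic stem (ES) cells that expressed the transcription factor SIM2 and in ES cells that did not. The genes were 3 members of the Myc and Max family (Myc, Mycn and Max) and 7 genes for abundant proteins of the nucleolus (Npm1, Npm3, Ncl, Fbl, Nop56, Nop58 and Dkc1). Each was found by an exact match of its symbol, so that they make up 10 of the 22602 genes in the deposited table, and all 10 were found. The study had 6 RNA-seq libraries in 2 groups of 3. The Sim2 group held clones A6, B8 and C4, in which a tetracycline-regulated form of the human CMV promoter at ROSA26 drives mouse Sim2 with a Flag tag, followed by the fluorescent reporter Venus. The EB3 group held independent cultures of EBRTcH3, the parental line with Venus but without the Sim2 transgene, numbered 0, 1 and 2. All 6 cultures grew with serum and leukemia inhibitory factor and spent 26 h without tetracycline, which turns Sim2 on in the clones. Each Sim2 library is 1 clone, whereas the EB3 libraries are cultures of 1 line. Differences that come with deriving a clone and the effect of SIM2 therefore cannot be told apart, for a single clone or between the groups.

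Myc and Mycn are basic helix-loop-helix transcription factors that bind the E-box sequence as dimers with Max. Many genes for ribosome assembly and nucleotide synthesis are known Myc targets, and the nucleolus, where ribosomal RNA is made and trimmed, grows with Myc activity. ES cells express both Myc and Mycn, divide fast and make many ribosomes. SIM2 belongs to the same wider class of factors and binds DNA as a dimer with ARNT.

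In the fit over all genes, 1 of the 10 genes passed the test, where 0.699% of all tested genes did so in either direction and 0.354% were lower. Npm3, a member of the nucleoplasmin family, was lower in the Sim2 clones, at 66.7% of its EB3 level. Its close relative Npm1, the most abundant of the 10 per length, stood at 70.8% of its EB3 level and missed the threshold. The Npm3 call was lost when any library but EB3-0 was left out. It was also lost when the reads of a near-identical copy, Npm3-ps1, were added. In 7 of the 10 genes all 3 clones lay below all 3 EB3 cultures, and no gene had all clones above all EB3 cultures. Over all tested genes these shares were 13.4% and 12.7%. Myc, Max and Nop56 had overlapping groups.

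The libraries held 25095861 to 28269340 reads assigned to genes, as recovered from the deposited values. Sim2 stood at 168 to 212 RPKM in the clones and at 0.0917 to 0.130 in EB3, which follows the labels. RPKM is reads per kilobase of cDNA, scaled to the size of the library. The ES cell markers Pou5f1, Sox2, Nanog, Zfp42, Esrrb and Tdgf1 summed to 3206 to 3407 RPKM in the clones and 3400 to 3823 in EB3, and all 6 were above 1 RPKM. Markers of primitive endoderm, trophoblast, neural cells and fibroblasts summed to at most 13.8 RPKM for each type, with 9 of 14 below 1 RPKM in every library. Those of primitive endoderm (Gata4, Gata6, Sox17 and Sox7) summed to 3.12 to 3.97 RPKM in the clones and 1.93 to 2.50 in EB3, with 3 of the 4 below 1 RPKM in all libraries, and their part in the differences given here was not tested. EB3-0 stood apart from the other EB3 cultures, with a correlation across genes of 0.980 with EB3-1 against 0.997 between EB3-1 and EB3-2. Clone B8 stood apart from the other clones, with correlations of 0.979 with A6 and 0.982 with C4 against 0.993 between A6 and C4. EB3-1 and EB3-2 differed by more than sampling noise, with a chi-square of 2.78 per gene, and was kept as 2 samples. Of the 22602 genes, 11595 had a mean of at least 1 RPKM and were tested with limma, and all 10 genes described here were among them. In bulk RNA, fewer cells of a type and less RNA per cell cannot be told apart.

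Promoter sequences from RefSeq (build GRCm38.p6) were used for 7 of the 10 genes, and those of Myc, Npm1 and Fbl were not analysed here. The 300 bases around each start site (250 before and 50 after) were searched on both strands for the E-box CACGTG, for TACGTG, the core of a SIM2-ARNT site, for the GC box GGGCGG and for the ETS site CCGGAAG. The Max promoter held the E-box, at position -3 to 3 from its start site, a motif found in 7.15% of 32851 promoters. None of the 7 held TACGTG, found in 3.23% of all promoters, or CCGGAAG, found in 8.86%. The GC box was in 5 of the 7 (Mycn, Npm3, Ncl, Nop56 and Nop58), against 35.7% of all promoters. Below are 130 bases of 5 promoters, 120 before the start site and 10 from it onward, with the matches in capitals. They show the partners Mycn and Max, the called gene Npm3, and the complex partners Nop56 and Nop58, which are compared later.
Mycn (chr12:12941827-12941956, minus strand): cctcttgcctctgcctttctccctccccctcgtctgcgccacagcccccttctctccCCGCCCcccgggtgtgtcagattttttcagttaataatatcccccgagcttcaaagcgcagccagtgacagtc
Max (chr12:76962239-76962368, minus strand): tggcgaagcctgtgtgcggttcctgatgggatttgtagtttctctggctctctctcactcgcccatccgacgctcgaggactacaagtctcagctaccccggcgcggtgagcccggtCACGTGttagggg
Npm3 (chr19:45749556-45749685, minus strand): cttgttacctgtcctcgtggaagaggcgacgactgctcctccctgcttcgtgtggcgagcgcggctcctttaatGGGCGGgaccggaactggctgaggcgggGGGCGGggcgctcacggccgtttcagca
Nop56 (chr2:130274292-130274421, plus strand): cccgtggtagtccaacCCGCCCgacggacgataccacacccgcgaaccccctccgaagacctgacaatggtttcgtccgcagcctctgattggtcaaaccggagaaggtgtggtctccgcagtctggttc
Nop58 (chr1:59684886-59685015, plus strand): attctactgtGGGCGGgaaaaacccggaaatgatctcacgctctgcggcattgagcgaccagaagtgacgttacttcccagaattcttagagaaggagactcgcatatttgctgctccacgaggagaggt
A match is a run of letters and was not tested as a bound site. In these stretches the capitals in the Max promoter are an E-box across the start site, and those in the others are GC boxes on either strand. The authors assigned their SIM2 binding sites to 1992 genes by distance, and 4 of the 10 (Mycn, Max, Npm1 and Ncl) are among these. Of the 310 genes whose promoters touched such a site in published chromatin contact data, 3 are Myc, Mycn and Npm1. Whether either count differs from that of other genes was not tested.

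Mycn, a Myc paralog that is prominent in ES cells (mm9 chr12:12942899-12948642, minus strand), stood at 94.3, 115 and 132 RPKM in the clones A6, B8 and C4. In EB3 it stood at 140.4, 155 and 161 RPKM in cultures 0, 1 and 2. All 3 clones were below all EB3 cultures, and the clones were spread over a wider range. The group means were 114 ± 19.0 and 152 ± 10.6 RPKM (SD, with n = 3 in each group). The log2 fold change was -0.43 ± 0.13 (SE, 95% interval -0.72 to -0.13). Every log2 fold change is Sim2 minus EB3 on the scale log2(RPKM + 0.5). In limma the adjusted p was 0.154, so Mycn was not called, with an unadjusted p of 0.0109.

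Myc (mm9 chr15:61816896-61821916, plus strand) stood at 67.4, 54.8 and 81.3 RPKM in A6, B8 and C4 and at 69.0, 67.2 and 69.8 RPKM in the EB3 cultures. A6 lay within the EB3 range, B8 below it and C4 above it. The SD of the log2 values over clones was 10.3 times that over EB3 cultures, the highest such ratio among the 10 genes. The means were 67.9 ± 13.3 and 68.7 ± 1.31 RPKM, and the log2 fold change was -0.03 ± 0.14 (SE), with a 95% interval of -0.35 to 0.28 that holds changes of either direction. The limma adjusted p was 0.923, and the 2-sided exact permutation test gave p = 0.8. Without clone B8 the log2 fold change was 0.11, so that its sign rests on 1 clone.

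Max, the shared partner of the family (mm9 chr12:78038256-78063235, minus strand), stood at 72.3, 80.7 and 76.7 RPKM in the clones and at 77.7, 75.3 and 74.3 RPKM in EB3. Its groups overlapped and lay within a narrow range. The log2 fold change was 0.01 ± 0.08 (SE, 95% interval -0.17 to 0.20), with a limma adjusted p of 0.951. It became -0.02 without B8.

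The ratio of Mycn to Myc within a library does not depend on how that library was scaled. It was 1.40, 2.11 and 1.63 in A6, B8 and C4, and 2.04, 2.30 and 2.31 in the EB3 cultures. The clone B8, with the lowest Myc, lay inside the EB3 range, and the other clones lay below it. The difference of the mean log2 ratios was -0.39, and the 2-sided exact permutation test gave p = 0.2, where 0.1 is the smallest value that 3 against 3 libraries allow. Mycn thus stood above Myc in all 6 libraries, while the difference between the groups did not pass the test.

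**Figure D1:**
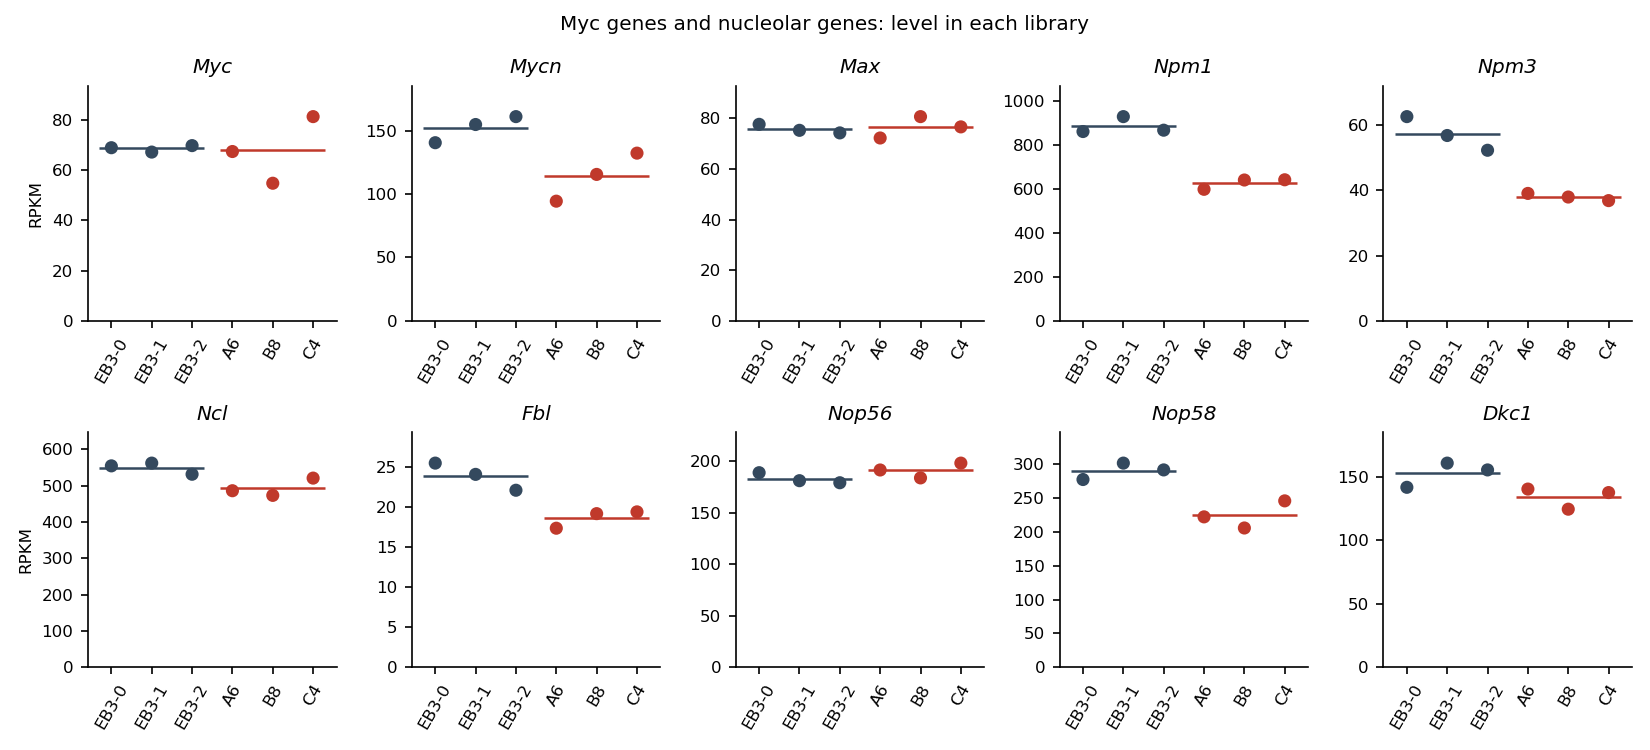
RPKM of the 10 genes in each library, with EB3 cultures in dark blue, Sim2 clones in red and the group mean as a line. Every axis starts at 0, and 7 genes have all clones below all EB3 cultures, whereas Myc, Max and Nop56 overlap.

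Among the nucleolar genes, Npm1 encodes nucleophosmin, a shuttling chaperone that shapes the outer layer of the nucleolus. Npm1 (mm9 chr11:33052511-33063056, minus strand) stood at 598, 641 and 642 RPKM in A6, B8 and C4, and at 861, 929 and 868 RPKM in EB3-0, EB3-1 and EB3-2. The clones lay close together and well below the EB3 cultures. The means were 627 ± 24.8 and 886 ± 37.6 RPKM, a log2 fold change of -0.50 ± 0.10 (SE, 95% interval -0.73 to -0.27). The limma adjusted p was 0.0738, above the threshold of 0.05, so Npm1 was not called here. The authors, who used edgeR on the same groups, did list Npm1 as lower at an FDR below 0.05. It was called in voom on the recovered reads, with an adjusted p of 0.0479, where 0.552% of all tested genes were called. It was also called without EB3-0, with an adjusted p of 0.0164, where 5.99% were called. With the trends of each library with cDNA length and GC content removed, the log2 fold change was -0.27 (adjusted p 0.112). Npm1 has 5 copies of at least 200 bases and 95% identity elsewhere in the genome, 1 of them in a listed gene, and reads were not divided among them here.

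Npm3 (mm9 chr19:45822224-45824053, minus strand) stood at 39.1, 38.0 and 36.9 RPKM in the clones and at 62.6, 56.8 and 52.3 RPKM in EB3. The clones varied less among themselves than the EB3 cultures did, and all were lower. The means were 38.0 ± 1.10 and 57.3 ± 5.18 RPKM, and Npm3 fell by 0.58 ± 0.09 on the log2 scale (SE, 95% interval -0.80 to -0.37), with a limma adjusted p of 0.0418. The call needs every library but EB3-0: without A6, B8, C4, EB3-1 or EB3-2 the adjusted p was between 0.106 and 0.213, and without EB3-0 it was 0.0209. It was also lost with no filter on low values (adjusted p 0.0634), in voom (0.0714) and with EB3-1 and EB3-2 averaged (0.147).

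The Npm3 value carries a further limit. An intronless copy of Npm3 on chromosome 6, with 873 bases at 97.7% identity, is listed as the gene Npm3-ps1 (mm9 chr6:85026135-85027120) and held 87.5% to 87.7% of the reads of both genes together in the clones and 84.1% to 85.4% in EB3, without overlap. Npm3-ps1 stood at 241, 231 and 228 RPKM in the clones and 319, 262 and 259 RPKM in EB3, again without overlap. Its log2 fold change was -0.26 ± 0.11 (SE), with a limma adjusted p of 0.261. With the reads of both summed as 1 gene, the level per length of Npm3 was 315, 303 and 299 RPKM in the clones and 428, 357 and 349 RPKM in EB3. All clones were still below all EB3 cultures, but the log2 fold change was -0.30 (95% interval -0.55 to -0.06) with an adjusted p of 0.198, and the call was lost. How the reads were shared between the copies was not tested.

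Npm2, the egg-type member of the nucleoplasmin family, was listed at 0.115 to 0.480 RPKM and was not tested. The ratio of Npm1 to Npm3 was 15.3, 16.9 and 17.4 in the clones and 13.8, 16.4 and 16.6 in EB3, a pair chosen after the values were seen. The groups overlapped, with a difference of 0.08 in mean log2 ratio (exact permutation p = 0.5, 2-sided), which was 0.24 with length and GC trends removed. These ratios leave out the reads of Npm3-ps1. The log2 fold change of Npm1 was -0.50, against -0.58 for Npm3 alone and -0.30 for Npm3 with Npm3-ps1. The size and direction of the ratio difference therefore depend on how reads were shared between the copies.

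Ncl encodes nucleolin, an RNA-binding protein of ribosomal RNA transcription and early processing. Ncl (mm9 chr1:88241294-88256030, minus strand) stood at 486, 473 and 521 RPKM in A6, B8 and C4 and at 554, 562 and 531 RPKM in EB3. The groups did not overlap, but C4 and EB3-2 were close. The log2 fold change was -0.16 ± 0.09 (SE, 95% interval -0.37 to 0.06), with a limma adjusted p of 0.436. Ncl alone took 0.391% to 0.430% of all reads in the clones and 0.439% to 0.464% in EB3. Its listed cDNA length of 8257 bases is the longest of the 10 and enters its RPKM as the divisor. With the length trend removed its log2 fold change was -0.30 (adjusted p 0.263), and with length and GC trends removed it was -0.21 (adjusted p 0.510).

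Fbl, Nop56 and Nop58 encode core proteins of the box C/D small nucleolar ribonucleoproteins, which place methyl groups on ribosomal RNA. Fbl encodes fibrillarin, the methyltransferase. It (mm9 chr7:28954767-28964288, plus strand) stood at 17.4, 19.2 and 19.4 RPKM in the clones and at 25.5, 24.1 and 22.1 RPKM in EB3. All clones were lower, and the lowest EB3 culture was EB3-2. The log2 fold change was -0.35 ± 0.10 (SE, 95% interval -0.58 to -0.12), with a limma adjusted p of 0.139. Fbl had the fewest reads of the 10, 506 to 808 per library, and a copy of 1161 bases at 97.2% identity lies on chromosome 17 and is not a listed gene, so its level is uncertain.

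Nop58 (mm9 chr1:59741850-59768354, plus strand) stood at 222, 206 and 246 RPKM in the clones and at 277, 302 and 292 RPKM in EB3. The clones were all lower, with C4 the nearest to EB3. The means were 225 ± 20.2 and 290.3 ± 12.2 RPKM and the log2 fold change was -0.37 ± 0.10 (SE, 95% interval -0.60 to -0.15), with a limma adjusted p of 0.116. Without EB3-0 Nop58 was called, with a limma adjusted p of 0.0436, where 5.99% of all tested genes were called. With length and GC trends removed its log2 fold change was -0.18.

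Nop56, whose protein pairs with that of Nop58 in the same particle (mm9 chr2:130100148-130105049, plus strand), did not follow it. It stood at 192, 184 and 198 RPKM in the clones and at 189, 181 and 179 RPKM in EB3, with overlapping groups. The log2 fold change was 0.06 ± 0.08 (SE, 95% interval -0.13 to 0.25), with a limma adjusted p of 0.735. Nop56 has 4 copies of at least 200 bases and 95% identity elsewhere in the genome, and its last bases overlap the end of Idh3b on the other strand. Whether counting used the strand was not stated.

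The ratio of Nop58 to Nop56 was 1.16, 1.12 and 1.24 in the clones and 1.47, 1.66 and 1.63 in EB3, without overlap. The difference of mean log2 ratios was -0.43, with an exact permutation p of 0.1 (2-sided), the smallest the design allows. The ratio of Fbl to Nop56 was 0.0908, 0.104 and 0.0980 in the clones and 0.135, 0.133 and 0.124 in EB3, with a difference of -0.41 and the same exact p of 0.1. Both pairs were chosen after the values were seen, so these are descriptions. With length and GC trends removed the differences were -0.28 and -0.46. Both Fbl and Nop56 have near-identical sequence elsewhere in the genome, so these ratios also depend on how reads were placed.

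**Figure D2:**
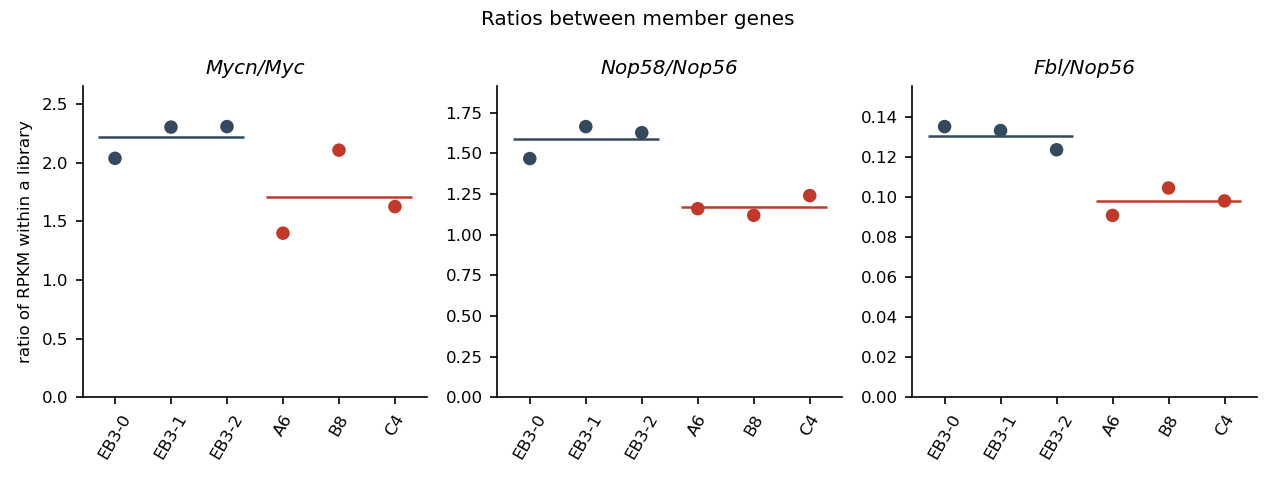
Ratio of RPKM between pairs of genes within each library, with EB3 cultures in dark blue, Sim2 clones in red and the mean as a line. Clone B8 lies inside the EB3 range for Mycn to Myc, while all clones lie below EB3 for both ratios to Nop56.

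Dkc1 encodes dyskerin, the pseudouridine synthase of the box H/ACA particles and a part of telomerase. Dkc1 (mm9 chrX:72341193-72355115, plus strand) stood at 140.3, 124 and 138 RPKM in the clones and at 142, 161 and 155 RPKM in EB3. The groups did not overlap, with A6 just below EB3-0. The log2 fold change was -0.19 ± 0.09 (SE, 95% interval -0.40 to 0.03), with a limma adjusted p of 0.341. With length and GC trends removed it was -0.07. Its last bases overlap the end of Mpp1 on the other strand.

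Read as a group, 8 of the 10 genes had a log2 fold change below 0, against 50.9% of all tested genes. The median was -0.27, against -0.01 over all tested genes. At an unadjusted p below 0.05, 5 of the 10 were lower (Mycn, Npm1, Npm3, Fbl and Nop58) and none was higher, where 9.36% of all tested genes were lower and 8.4% were higher. All 3 clones were below all EB3 cultures in 7 of the 10. For each of the 7, the 2-sided exact permutation p was 0.1. The genes together took 0.646% to 0.710% of reads in the clones and 0.763% to 0.799% in EB3. These genes, and the lists below, were chosen with earlier results of these data known, so the counts are descriptions and not a test of a group.

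**Figure D3:**
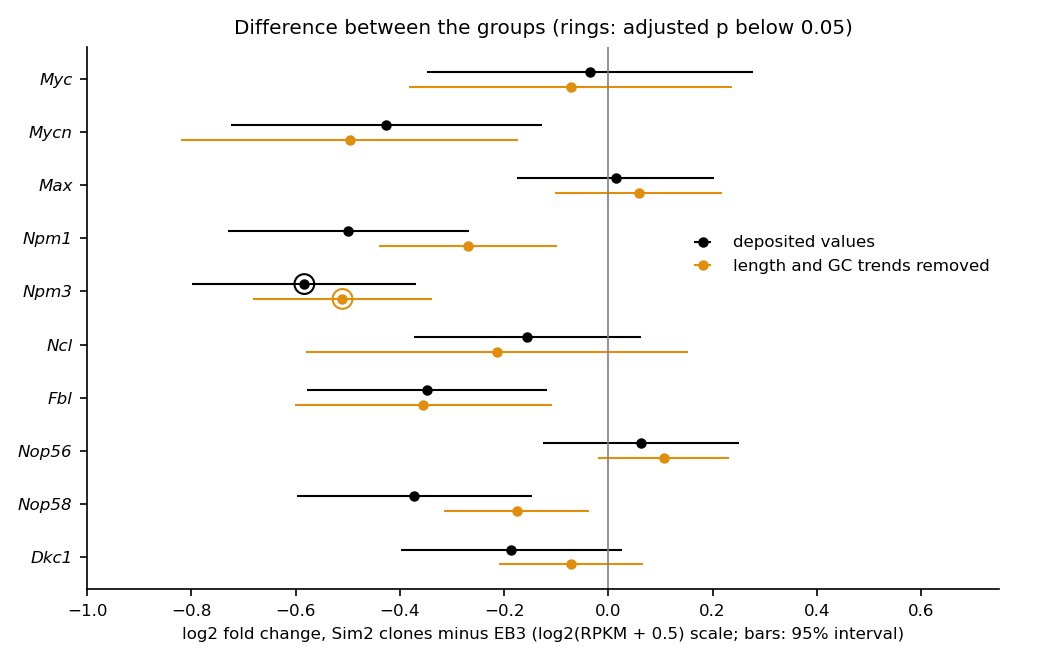
Log2 fold change of each gene, Sim2 clones minus EB3, with its 95% interval, from the deposited values in black and with length and GC trends removed in orange. Rings mark an adjusted p below 0.05, which Npm3 alone of the 10 reached in both fits (0.699% and 1.72% of all tested genes did), and with the trends removed Npm1, Nop58 and Dkc1 moved toward 0 while Ncl moved from -0.16 to -0.21.

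The GC content and the cDNA length of the transcripts moved with these differences. When the tested genes with a known transcript sequence were split into 5 equal classes, the class of lowest GC content (33.1% to 44.8%) held Npm1, Ncl, Nop58 and Dkc1. In that class the median log2 fold change was -0.13 and all clones were below all EB3 cultures in 24.4% of genes. In the class of highest GC content the median was 0.08 and the share was 5.16%. Npm3 has a GC content of 52.8% and Mycn one of 54.8%, in a class whose median was 0.06. Set against the mean of EB3, the median gene of the lowest class stood at -0.20 in EB3-0, 0.12 in EB3-1 and 0.09 in EB3-2. In the clones it stood between -0.14 and -0.12. EB3-0 was thus on the side of the clones for low-GC genes. The classes by cDNA length showed a trend of like size. The shortest class (105 to 1522 bases) held Npm1, Npm3 and Fbl, and had a median log2 fold change of -0.09, with all clones below all EB3 cultures in 17.3% of genes. The longest class, with Ncl, had a median of 0.09 and a share of 4.48%. Set against the same EB3 mean, the median gene of the shortest class stood at 0.20 in EB3-0, -0.09 in EB3-1 and -0.10 in EB3-2. In the clones it stood between -0.14 and -0.02, so that EB3-0 was the library farthest from the others. With the length trend removed the log2 fold changes were -0.44 for Npm1, -0.49 for Npm3 (adjusted p 0.0264) and -0.28 for Fbl. The share of either trend in the differences of single genes was not tested beyond the values with the trends removed.

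**Figure D4:**
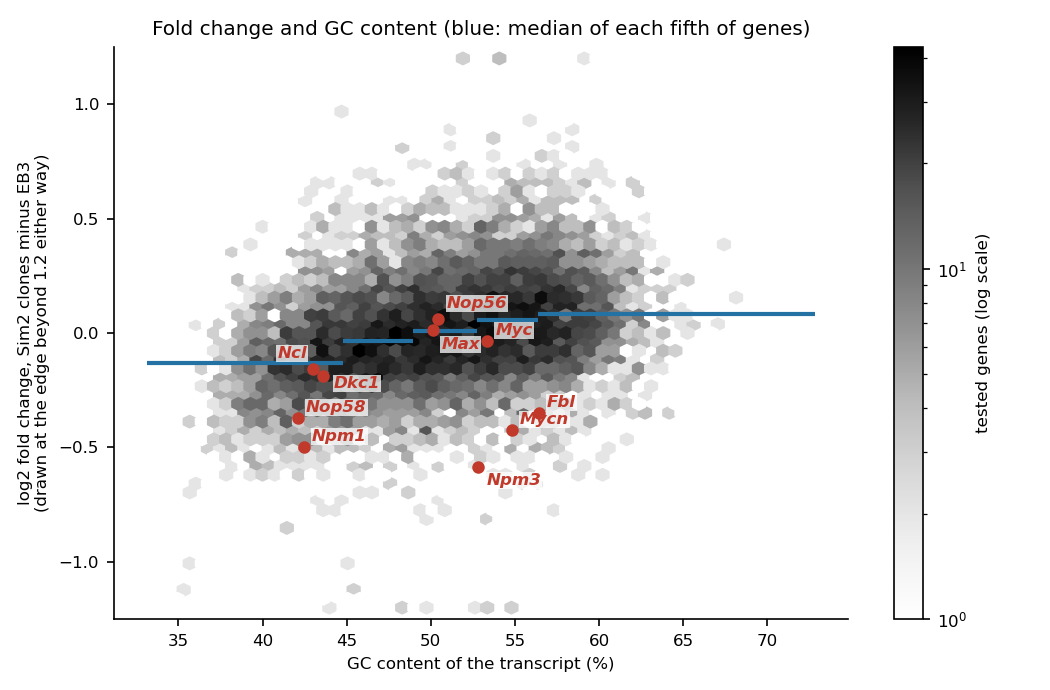
Log2 fold change against GC content of the transcript for the tested genes (grey, darker for more genes), with the 10 genes in red and the median of each of 5 equal classes as a blue bar. Medians rise from -0.13 to 0.08 with GC content, and Npm3, Mycn and Fbl lie far below the median of their GC classes.

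The order of the levels, per length of cDNA, was the same in both groups. In EB3 it ran from Npm1 (886 RPKM) through Ncl (549), Nop58 (290.3), Nop56 (183), Dkc1 (153), Mycn (152), Max (75.8), Myc (68.7) and Npm3 (57.3) to Fbl (23.9). Dkc1 and Mycn overlapped in EB3 and again in the clones, and Max and Myc overlapped in the clones. All other neighbours in the order were apart in every library of a group. The places of Npm3 and Fbl depend on how reads were shared with their copies, and that of Ncl on its listed length of 8257 bases. In reads Ncl stood above Npm1 in every library, with 100665 against 18905 in A6.

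Across the 6 libraries the log2 level of Npm1 had a Pearson correlation of 0.93 with Npm3, 0.93 with Fbl, 0.92 with Nop58, 0.88 with Ncl, 0.87 with Mycn and 0.77 with Dkc1. It was 0.09 with Myc, -0.05 with Max and -0.64 with Nop56. These values include the difference between the groups, and the 6 points share each library's depth and GC trend. Outside the 10 genes, those closest to Npm1 were Laptm4a (0.997), Slc1a3 (0.993), Armc8 (0.992), Rpp30 (0.991) and Zfand6 (0.991). Of these only Zfand6 was called, with a log2 fold change of -0.56 and a limma adjusted p of 0.0382. Among those closest to Myc were Nexn (0.996), Map3k6 (0.971), Dock6 (0.965) and Exoc8 (0.956), none of which was called. Nexn and Map3k6 had mean levels of 1.48 and 1.21 RPKM, close to the filter of 1 RPKM. For both Npm1 and Myc these genes are the highest values picked from all tested genes over 6 libraries, and no test was run on them.

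Related genes were read from 5 lists. None of their genes was called in the fit over all 6 libraries. Over all tested genes 50.9% had a log2 fold change below 0, 9.36% were lower and 8.4% higher at an unadjusted p below 0.05, and the clones lay apart from EB3 on the lower side in 13.4% and on the higher side in 12.7%. Of the 24 Myc targets outside the nucleolus, all tested, 19 had a log2 fold change below 0 and the median was -0.16. Without EB3-0 the median was -0.07, with 16 below 0, and with length and GC trends removed it was -0.09, with 21 below 0. At an unadjusted p below 0.05, 3 were lower and 1 was higher. Hspe1, a mitochondrial co-chaperone, had a log2 fold change of -0.32 and Eif4e, which binds the mRNA cap, had -0.31. At the other end were Cad, of pyrimidine synthesis, at 0.27 and Tert, the telomerase reverse transcriptase, at 0.16.

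The Max network list holds other factors of the network of Myc, Max and Mlx, 10 of 10 tested. Its median was 0.02, with 4 genes below 0 and 1 at an unadjusted p below 0.05. With length and GC trends removed 8 were below 0 and the median was -0.08, and without EB3-0 7 were below 0 and the median was -0.04, so the direction of this list depends on the setting. The lowest were Mycl1, the third Myc paralog, at -0.34 and Mxi1, a Myc antagonist, at -0.25. The highest were Mxd4, another antagonist, at 0.39 and Mga, a Max partner, at 0.17. Mga stood at 27.0 to 32.8 RPKM in the clones, 33.1 and 34.8 in EB3-1 and EB3-2, and 15.1 in EB3-0, so every clone lay below EB3-1 and EB3-2.

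Of 10 further proteins of small nucleolar ribonucleoproteins, all tested, 6 had a log2 fold change below 0 and the median was -0.03. Without EB3-0 the median was 0.09 and without B8 it was 0.03, each with 3 genes below 0, so its sign rests on 1 library. It was 0.04 with the length trend removed and -0.02 with length and GC trends removed. The extremes were Nop10, a partner of dyskerin, at -0.33, Naf1, an H/ACA assembly factor, at -0.19, Nhp2l1, a C/D core protein, at 0.09 and Nufip1, a C/D assembly factor, at 0.30. The partners of fibrillarin and dyskerin thus lay on both sides of 0, and 1 of the 10, higher, reached an unadjusted p below 0.05. Small nucleolar RNAs sit in introns of Ncl, Nop56 and Nop58. Snora75, in Ncl, had 1 to 4 reads per library. Snord82, Snord110, Snord57, Snord11 and Snord70, of 53 to 68 bases, were listed at 0 in all libraries. Counting error alone allows up to 3 reads each. The libraries were also made for mRNA, so the levels of these short RNAs cannot be read from them.

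The list of ribosome assembly factors had 51 of 54 genes tested, since Npm2 was too low and Nop9 and Noc2l matched no symbol. Of these 37 had a log2 fold change below 0, with a median of -0.05. With length and GC trends removed 41 were below 0 and the median was -0.09. All clones were below all EB3 cultures in 17 genes and above them in 2. At an unadjusted p below 0.05, 8 were lower and 1 was higher, and the number lower was 1 without B8 and 11 without EB3-0. Mki67ip and Pno1 were lowest at -0.30 each, and Bop1, of the large subunit, at 0.27 and Mybbp1a at 0.17 were highest.

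RNA polymerase I, which transcribes the ribosomal RNA genes, had 14 of 15 subunits and factors tested, and Taf1a matched no symbol. Of the 14, 13 were below 0, with a median of -0.12, and 3 reached an unadjusted p below 0.05, all lower. The median was -0.05 without B8 and -0.06 without EB3-0, and -0.18 without A6. With length and GC trends removed it was -0.13, with 11 below 0. Taf1d, of the promoter selectivity factor, had a log2 fold change of -0.47 and Cd3eap, a polymerase subunit, had -0.35. The largest subunit, Polr1a, stood at 0.18 and the factor Ubtf at -0.04. Without EB3-0, 4 genes of the lists were called, Eif4e, Tfrc and Taf1d lower and Bop1 higher, against the 5.99% of all tested genes called there.

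**Figure D5:**
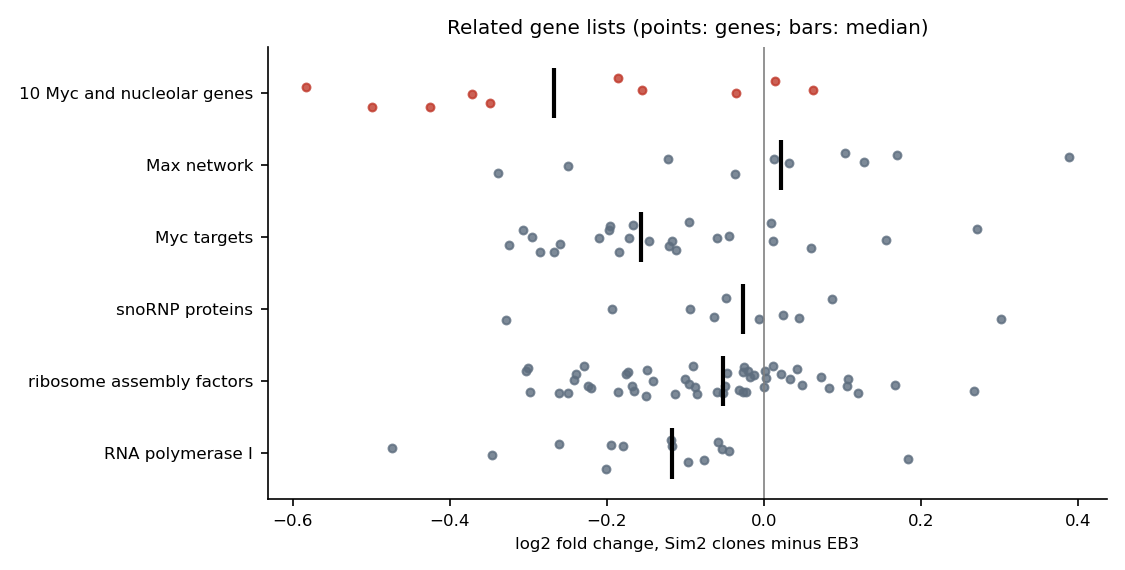
Log2 fold change, Sim2 clones minus EB3, of each tested gene of the 5 lists (grey) and of the 10 genes (red), with the median of each as a bar. Medians of the lists lie between -0.16 and 0.02, and that of the 10 genes at -0.27.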

How the data were processed

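The authors mapped paired mRNA reads to mm9 with BWA at default settings, measured the exon coverage of each gene with their own pipeline and deposited RPKM per library. Versions, strand use and the treatment of reads with several positions are not given in the sources used here. RPKM values times cDNA length were whole multiples of 1 read, within 0.01 of a read, for 100% of values, which gave the depth. Genes whose mean reached 1 RPKM were tested on log2(RPKM + 0.5) with limma 3.58.1 (R 4.3.3, intensity trend, no covariate) and Benjamini-Hochberg adjustment over 11595 genes, called below 0.05. The authors used edgeR, and the main fit here used the RPKM values as deposited, with the recovered reads used for voom only as an alternative and for the depth. Single values were compared by 2-sided exact permutation. Alternatives were other pseudocounts, filters, scaling, removal of length and GC trends by splines, robust variances, voom on recovered reads, EB3-1 and EB3-2 averaged, and each library left out. Summing Npm3 and Npm3-ps1 was added after seeing the data. Copies were sought with BLAST 2.17.0 (at least 200 bases, 95% identity). The scripts were tested on simulated data. Columns left unused: 0. The members, gene lists and tests were chosen with earlier results of these data known. The text names all 10 members, at most 5 called and the 2 highest and 2 lowest genes of each list, the 5 genes most correlated with Npm1 and with Myc (1 of those for Myc is not reported here), and Sim2. Other genes (Npm2, Npm3-ps1, small nucleolar RNAs, overlapping genes, Tfrc) were named after their values were seen.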

Additional observations from a re-analysis of the deposited data

How the results depend on the processing

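The number of all tested genes called was 28 with no filter on low values, 238 with the length trend removed, 199 with length and GC trends removed, 6 with EB3-1 and EB3-2 averaged, and 6 to 694 when each library was left out in turn, against 81. The number of the 10 genes called was 0 with no filter, 0 with EB3-1 and EB3-2 averaged, 0 with Npm3 and Npm3-ps1 summed, and 0 to 3 with each library left out, the 3 (Npm1, Npm3 and Nop58) without EB3-0. In voom the 1 gene called was Npm1 (adjusted p 0.0479) and not Npm3 (0.0714). Genes of the lists were called in 0 to 4 cases with a library left out, and in 0 under the 10 other alternatives run for the lists. With a library left out the log2 fold change of Myc ranged from -0.17 to 0.11, turning sign without B8, and that of Max from -0.025 to 0.054, turning sign without B8 and without EB3-2 (-4.6e-05). For the ratio of Mycn to Myc, leaving out a library gave differences of -0.55 to -0.26. Of the values for single genes under an alternative, 146 kept direction and side of the threshold, 9 lost a call (all Npm3), 3 gained one and 3 turned. No paired analysis was possible because the clones are named A6, B8 and C4 and the EB3 cultures 0, 1 and 2, with no shared number. The limma p-values set the difference between the groups against the spread among 3 clones and among 3 cultures of 1 line, moderated over all tested genes. The exact test of 3 against 3 libraries cannot give a p under 0.1.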
